A study of Mus musculus with 9 samples.

Results

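The lymphocyte homing receptor genes Ccr9, Ccr7, Cxcr4, Cxcr5, S1pr1 and Ccr4 were examined for binding of CTCF and of the cohesin subunit Rad21. These 6 genes were chosen by name, out of 22367 protein-coding genes in the mouse annotation, and every called peak that overlapped the mm9 gene body of a member or the 100 kb on either side of it was taken. The 6 windows together span 1.344 Mb and do not overlap. The CTCF lists put 92 of 71080 peaks from pro-B cells and 67 of 42250 peaks from pre-B cells in these windows. The Rad21 lists put 68 of 30488 pre-B peaks, 22 of 9701 DN peaks and 75 of 36743 DP peaks there.

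All cells came from RAG1-deficient C57BL/6 mice, which cannot recombine their antigen receptor genes, and each condition has 1 library, so there are no replicates and no test between conditions was run. Pro-B cells were bone marrow cells of RAG1-/- mice grown for 7 days with IL7, supplied as supernatant of J558 cells that express it. Pre-B cells were bone marrow cells of RAG-/- mice that carry a rearranged IgM transgene. DN thymocytes came from Rag1-/- mice and DP thymocytes from Rag1-/- mice with a rearranged TCRβ transgene. Bone marrow donors of both sexes were 6 to 14 weeks old and thymus donors 4 to 8 weeks old. Transgene-driven pre-B and DP cells are models of these stages in which every cell carries the same receptor chain. CTCF in thymocytes was not analysed here, the files hold peaks rather than expression so the labelled cell types could not be checked against marker genes, and whether a library pooled several animals is not given in the sources used here.

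Homing receptors are G protein-coupled receptors that steer lymphocytes between organs. CCR9 binds CCL25 in the thymus and small intestine, CCR7 follows CCL19 and CCL21 into lymph nodes and the thymic medulla, CXCR5 follows CXCL13 into B cell follicles, CXCR4 holds progenitors near CXCL12 in the bone marrow, S1PR1 senses sphingosine 1-phosphate and lets mature cells leave, and CCR4 binds CCL17 and CCL22. CTCF is a zinc finger protein that binds a long DNA motif, and cohesin, a ring complex with Rad21 as a subunit, often stops at CTCF sites and holds DNA loops there. Cohesin is also found at active promoters and enhancers where CTCF may be absent.

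The sequences of 1 pre-B CTCF peak for each locus and of a second one for Ccr4 are given first, to show what the consensus matches discussed further on look like in these loci. Each is 30 bases of mm9 read 5′ to 3′ on the strand of the match, with the 12 bases closest to the 12-base CTCF consensus of the study's motif table in capitals.

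Ccr9 site, chr9:123705478-123705507, plus strand, 2 mismatches: gctttctatGCCCCCTTGTGTtcactgcgg
Ccr7 site, chr11:98985430-98985459, plus strand, 1 mismatch: tgtttggatGCCCCCTTGTGGgcagttgtt
Cxcr4 site, chr1:130489206-130489235, minus strand, 2 mismatches: tccaacattGCCGCCTACTGGttaggcagg
Cxcr5 site, chr9:44286051-44286080, minus strand, 1 mismatch: gtttttactGTCCCCTAGTGGttatgtctg
S1pr1 site, chr3:115364117-115364146, minus strand, 1 mismatch: gtcgctattGCCACCTAGTGGccctcaggc
Ccr4 upstream site, chr9:114407521-114407550, plus strand, 1 mismatch: agctgtagcGCCCCCTGGTGTaccaggact
Ccr4 site in Glb1, chr9:114325045-114325074, minus strand, 0 mismatches: tggaacactGCCCCCTAGTGGacaaagaca

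The Cxcr4 sequence lies in the promoter, the Ccr4 upstream sequence lies in front of the gene, the Ccr4 site in Glb1 lies in an intron of that neighbour, the Ccr9 sequence lies in an intron of Fyco1, and the other 3 lie between genes. The only exact match among the pre-B CTCF peaks of the 6 loci was the one in Glb1.

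Promoters of 2 members are shown because their Rad21 calls differ: the Ccr9 promoter was called for Rad21 in DP thymocytes alone, and the Cxcr4 promoter held the highest-ranked Rad21 peak of the 6 loci in the pre-B and DP lists, though not in the DN list. Each is the 250 bases before the main start site, on the gene's strand, with matches to 3 short motifs in capitals.

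Ccr9 promoter, chr9:123676079-123676328, plus strand: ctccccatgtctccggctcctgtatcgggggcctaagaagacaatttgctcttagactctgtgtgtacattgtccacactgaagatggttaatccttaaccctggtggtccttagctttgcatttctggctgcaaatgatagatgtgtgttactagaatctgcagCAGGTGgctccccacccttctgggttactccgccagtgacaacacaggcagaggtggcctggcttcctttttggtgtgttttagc
Cxcr4 promoter, chr1:130488868-130489117, minus strand: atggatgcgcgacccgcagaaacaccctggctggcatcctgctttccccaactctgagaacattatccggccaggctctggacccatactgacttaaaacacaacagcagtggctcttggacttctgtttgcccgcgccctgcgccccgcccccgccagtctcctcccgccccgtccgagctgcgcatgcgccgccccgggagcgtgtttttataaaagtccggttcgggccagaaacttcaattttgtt

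The 3 motifs were searched on both strands in the promoters of 5 members: TGTGGT, found in 12.7% of all 22367 promoters of this length, CAGGTG in 16.9% and GGAAGT in 19.8%. These are short forms of sites that Runx, E and Ets proteins can bind. CAGGTG was present at Ccr9 and Ccr4, and TGTGGT and GGAAGT at Ccr7, while GGAAGT was also present at Ccr4. None of the 3 was found in the Cxcr4 or S1pr1 window. The Cxcr4 window stood apart in composition, with 59.6% G or C and 19 CpG pairs, against 3 CpG pairs at Ccr9, Ccr7 and Ccr4 and 7 at S1pr1.

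Since lists end at different depths, a site with no peak is a site not called in that library and need not be an unbound site. The CTCF lists ended at scores of 50 (pro-B) and 66.97 (pre-B), and the Rad21 lists at 59.74 (pre-B), 86.45 (DN) and 57.72 (DP). Read depth is not known for any list. The DN list is the shortest, whether it is the list behind the study's own figures is not given in the sources used here, and DN values describe the deposited list only. Peak scores were compared only within a list, as the percent of that list's peaks with a lower score, called the rank percentile here. Intervals in brackets are exact 95% binomial intervals (Clopper-Pearson) that cover counting error only, and peaks of 1 locus are neighbours and are not independent of each other.

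Peak density in the 6 windows was 68.5 peaks per Mb for CTCF in pro-B cells and 49.9 for CTCF in pre-B cells. For Rad21 it was 50.6 in pre-B, 16.4 in DN and 55.8 in DP cells, and with the Rad21 lists limited to equal length it was 13.4, 16.4 and 17.9, so the lower DN density went with the shorter list. Merging peaks of the 5 lists that overlap directly or through a further peak gave 139 sites, of which 64 were called in 1 library (45.2% of 83461 such sites in the genome) and 20 in all 5 (10.3% in the genome). At S1pr1, 4 of 11 sites were called in all 5 libraries, whereas at Cxcr4 it was 1 of 20, the promoter.

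**Figure D1:**
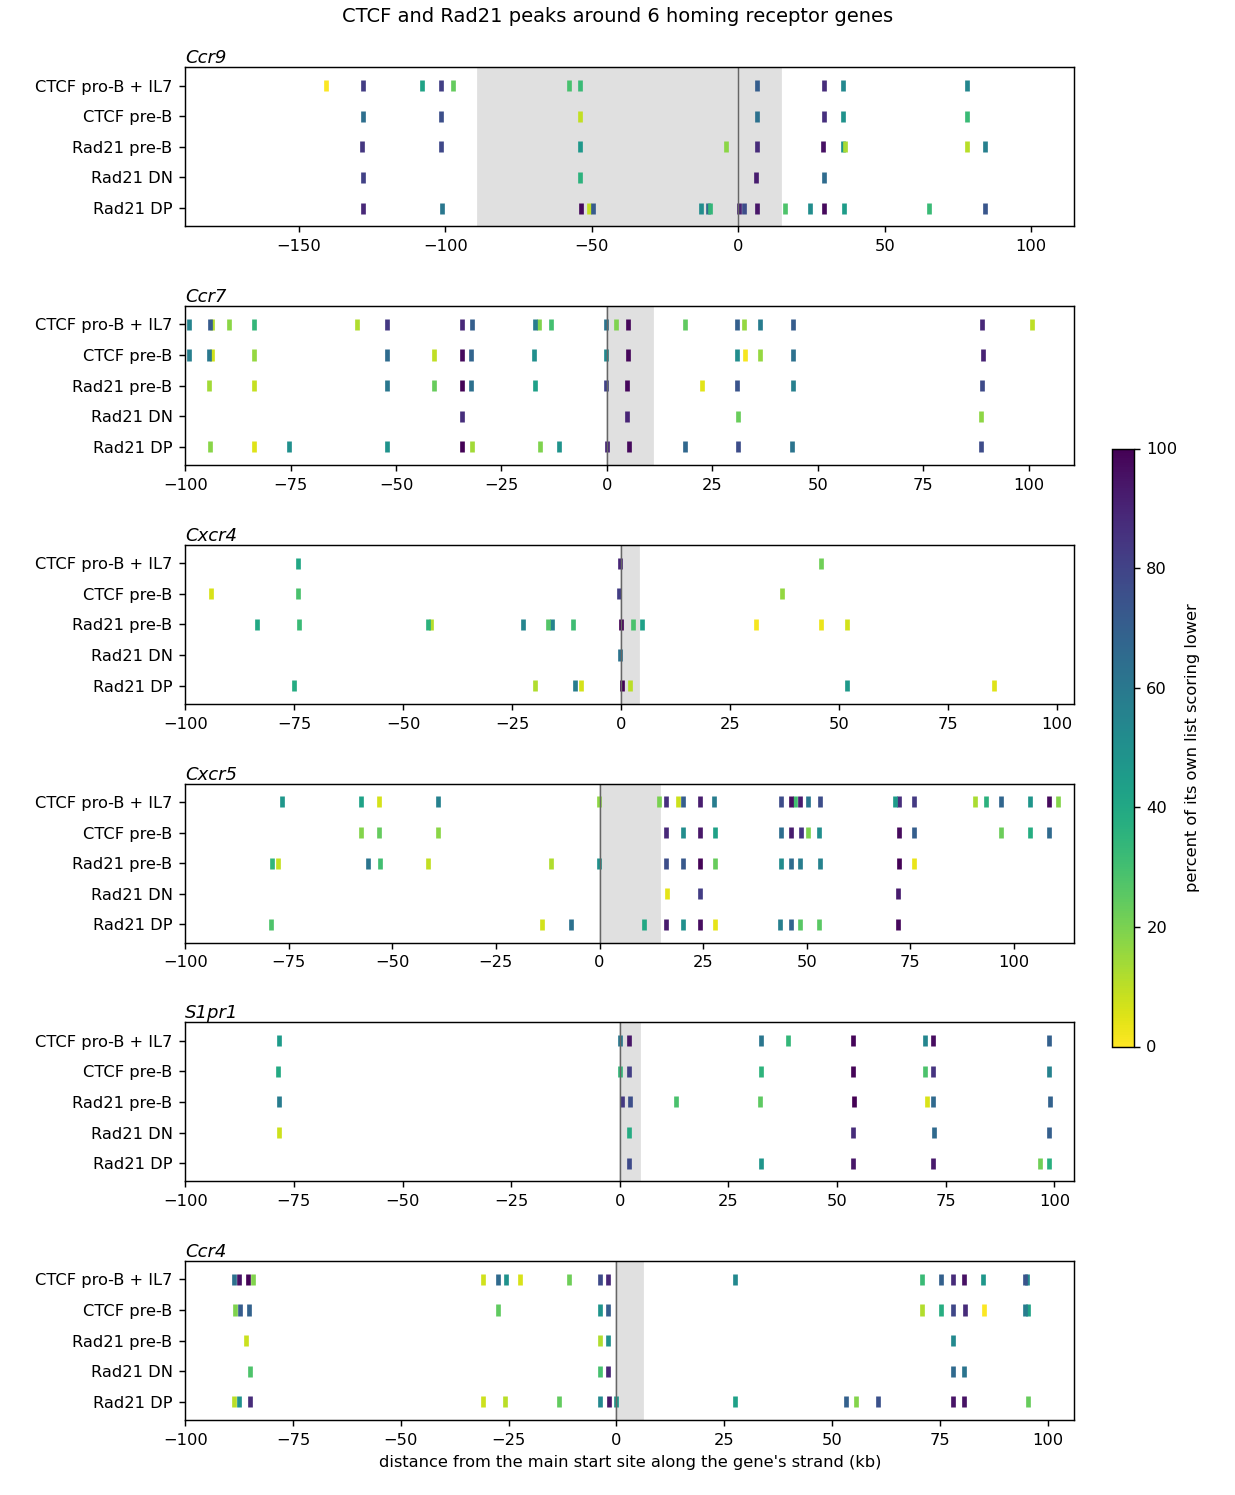
Peaks of the 5 libraries around each of the 6 genes, by distance in kb from the main start site along the gene's strand, with the gene body shaded and each mark, the highest peak of a list at a merged site, coloured by its rank percentile within its own list. Rad21 marks in DP thymocytes gather along the Ccr9 gene body, Rad21 marks in pre-B cells spread around Cxcr4 where few CTCF marks lie, and at Ccr4 the DP marks outnumber the 4 in pre-B cells.

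Promoters, taken as 2 kb on either side of any annotated start site, were compared first. CTCF was called at 5 of the 6 member promoters in pro-B cells with IL7, against 46.1% of all protein-coding promoters, and at 4 of 6 in pre-B cells, against 33.1%. Rad21 was called at 5 of 6 in pre-B cells (all promoters 25.4%), at 3 of 6 in DN thymocytes (6.61%) and at 5 of 6 in DP thymocytes (36.3%). Cxcr4, S1pr1 and Ccr4 were called in every library, Ccr7 in every library but DN, Cxcr5 for CTCF in pro-B cells and for Rad21 in pre-B cells, and Ccr9 for Rad21 in DP thymocytes alone. A promoter called for Rad21 in DP but not in pre-B cells was thus found at 1 of 6 members, Ccr9, and at 16.0% of all promoters. The reverse, a call in pre-B cells and in neither thymocyte library, was found at 1 of 6, Cxcr5, and at 4.91% of all promoters. When each Rad21 list was limited to its 9701 highest peaks, the length of the DN list, 3 member promoters were called in pre-B cells (Ccr7, Cxcr4 and S1pr1, all promoters 7.31%) and 5 in DP (all promoters 9.62%). Ccr9 was still called in DP and not in pre-B cells. Ccr4 was then also called in DP and not in pre-B cells, with a DN call as well, and Cxcr5 was called in no Rad21 list. The width of the promoter set some of these calls: at 5 kb the pre-B Rad21 list gained Ccr9 and the DN list gained Ccr7, and at 1 kb Ccr4 was called in DP thymocytes alone.

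**Figure D2:**
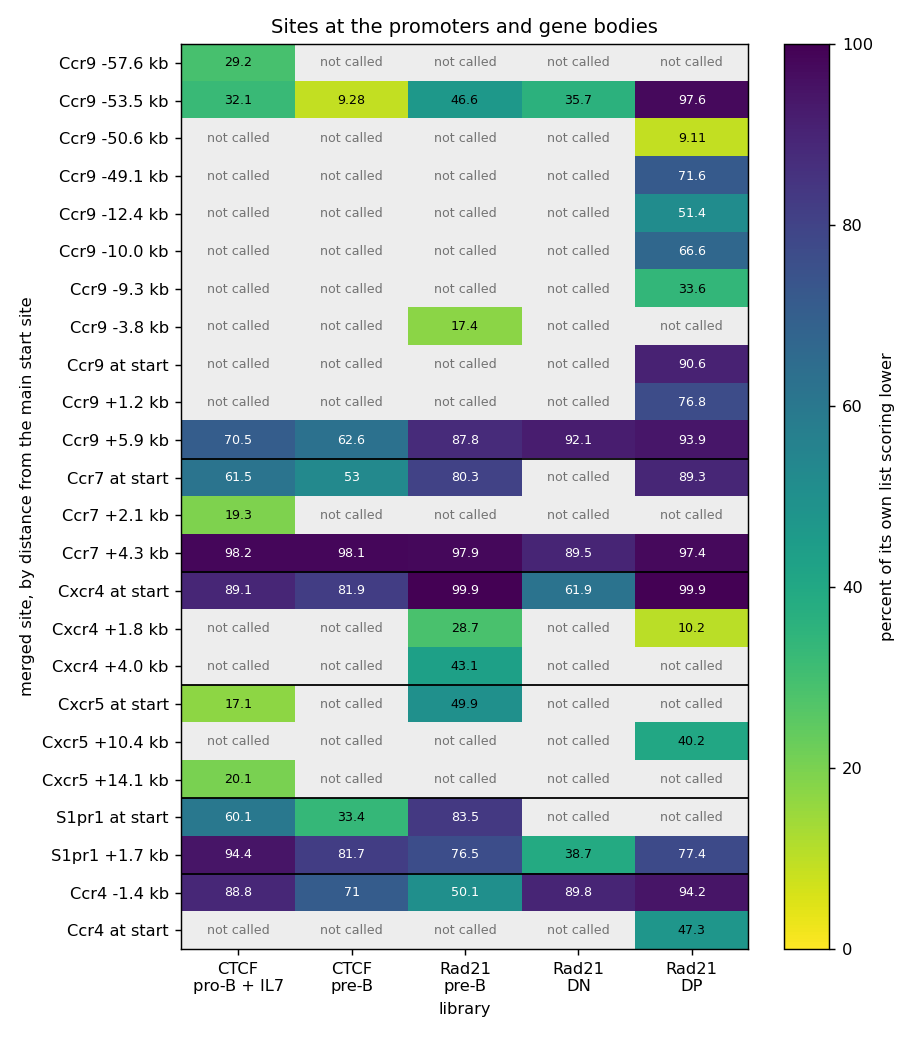
Rank percentile within each library's own list for every merged site at a gene body or within 2 kb of a start site, ordered along each gene, with the distance in kb from the main start site. The Cxcr4 start site reached 99.9 in the pre-B and DP Rad21 lists, and the Ccr9 start site was called in DP thymocytes alone at 90.6.

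Ccr9, the receptor for the thymic and intestinal chemokine CCL25, lies at chr9:123587557-123691089 on the plus strand. A long transcript that starts far upstream makes this gene body 103533 bp, overlapping Lztfl1, and the main start site is at 123676329. At this start site no CTCF peak was called in either B-lineage list and no Rad21 peak in pre-B cells or DN thymocytes. In DP thymocytes Rad21 covered it with a peak of 995 bp (chr9:123675969-123676963), which ranked 3437 of 36743 (percentile 90.6) and was wider than 93.1% of the list. A second DP peak followed 1.25 kb downstream (76.8). The nearest Rad21 peak in pre-B cells lay in an intron of the long transcript, 3.79 kb upstream of the main start, and was weak (17.4).

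A CTCF peak of pro-B cells 57.6 kb upstream, where the long transcript overlaps Lztfl1, had a percentile of 29.2. Around these, 5 more DP peaks without a call in any other library lay inside the Ccr9 gene body, at 50.6, 49.1, 12.4, 9.99 and 9.33 kb upstream of the start site, with percentiles of 9.11, 71.6, 51.4, 66.6 and 33.6. The first pair overlies Lztfl1 as well, the second of them at its annotated start, so these peaks cannot be given to Ccr9 alone. A site 5.88 kb downstream, in an intron of Ccr9, was called in all 5 libraries, with percentiles of 70.5 and 62.6 for CTCF in pro-B and pre-B cells and of 87.8, 92.1 and 93.9 for Rad21 in pre-B, DN and DP cells. The site 53.5 kb upstream was also in every list. Its percentiles were 32.1 and 9.28 for CTCF, 46.6 and 35.7 for Rad21 in pre-B and DN cells and 97.6 in DP, the highest DP peak of the locus. Its Rad21 ranks were 16269 of 30488 in pre-B, 6233 of 9701 in DN and 894 of 36743 in DP. Percentiles of lists so unlike in length are not directly comparable. The site in Fyco1, 28.6 kb downstream, held the highest peak of the locus in both CTCF lists (87.4 and 86.0) and in the pre-B Rad21 list (95.7), with 65.1 in DN and 97.5 in DP. Outside the gene body the nearest sites were a CTCF peak of pro-B cells 97.3 kb upstream of the main start (23.5) and a DP Rad21 peak 15.9 kb downstream (27.9).

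Ccr7, which guides cells to lymph nodes, lies at chr11:99005510-99016391 on the minus strand. Its start site carried CTCF in pro-B cells (percentile 61.5) and in pre-B cells (53.0), and Rad21 in pre-B cells (80.3) and DP thymocytes (89.3), while DN thymocytes had no call there. An intronic site 4.27 kb downstream of the start was one of the strongest of the 6 loci in both CTCF lists, with percentiles of 98.2 and 98.1, and reached 97.9, 89.5 and 97.4 for Rad21 in pre-B, DN and DP cells. A CTCF peak of pro-B cells 2.07 kb inside the gene was weak (19.3). The highest Rad21 peaks of the locus in pre-B and DP cells stood 33.9 kb upstream, between genes, at 99.1 and 99.3, and this site held CTCF at 89.0 in pro-B and 97.0 in pre-B cells and Rad21 at 86.8 in DN thymocytes. The nearest sites outside the gene were both DP Rad21 peaks, 11.1 kb upstream (48.5) and 18.1 kb downstream (66.5), of which the second also held a pro-B CTCF peak (24.4).

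Cxcr4, the receptor for CXCL12, lies at chr1:130484776-130488870 on the minus strand, and its promoter was called in every library. Rad21 there ranked 39 of 30488 in pre-B cells and 54 of 36743 in DP thymocytes, a percentile of 99.9 in both. The pre-B peak was 3443 bp wide, the DP peak was 2979 bp wide, more than 99.9% of the DP list, and both ran from the gene into the sequence upstream of the start. In DN thymocytes the peak was 726 bp wide with a percentile of 61.9. CTCF at the same site had percentiles of 89.1 in pro-B and 81.9 in pre-B cells, and the closest consensus match, the Cxcr4 sequence shown above, has its end nearest the gene at position -348 from the start site.

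Most of the rest of the Cxcr4 window held Rad21 without CTCF. Of the 18 merged Rad21 sites, 10 were called in pre-B cells and in neither thymocyte library, 4 in DP thymocytes alone and 3 in both pre-B and DP cells, and no CTCF peak lay at 8 of the 10, at any of the 4 or at any of the 3. A pre-B peak across the gene's end, 4.0 kb from the start, had a percentile of 43.1, and a peak 1.82 kb inside had 28.7 in pre-B and 10.2 in DP cells. Upstream, the highest sites found in pre-B cells alone were those at 15.3, 21.4 and 83.1 kb, with percentiles of 55.4, 54.6 and 39.9. None of the 10 was among the 9701 highest pre-B peaks, so with lists of equal length the promoter was the 1 remaining Rad21 site of the window. The nearest sites outside the gene were a DP peak 9.0 kb upstream (6.62) and a pre-B peak 30.7 kb downstream (1.19).

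Cxcr5, the follicle homing receptor, lies at chr9:44319871-44334504 on the minus strand, and calls at its start site were few and of middle or low rank. Rad21 in pre-B cells had a percentile of 49.9 there and CTCF in pro-B cells 17.1, and the other 3 lists had no call. Within the gene, a DP Rad21 peak 10.4 kb downstream of the start (40.2) and a pro-B CTCF peak 14.1 kb downstream (20.1) were called in no other library. Just past the gene's end, at the neighbour Bcl9l 15.2 kb from the start, a site was called in all 5 libraries, at 86.3 and 88.3 for CTCF and 76.3, 4.21 and 92.3 for Rad21 in pre-B, DN and DP cells. The highest Rad21 peaks lay at Upk2, 71.6 kb downstream, with 99.4, 92.2 and 98.0 in pre-B, DN and DP cells, where CTCF had 87.1 in pro-B and 97.3 in pre-B cells. The highest CTCF peak of pro-B cells, at Ccdc84 108 kb downstream (97.6), was also called in pre-B cells (65.9) but in no Rad21 list. Upstream of Cxcr5 the nearest site was a DP Rad21 peak 6.53 kb away (62.5), and of 7 sites with Rad21 in pre-B cells alone the highest were 55.1 kb upstream (61.1), at the promoter, and 52.6 kb upstream (30.4).

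S1pr1, the egress receptor, lies at chr3:115413351-115417973 on the minus strand and has 2 annotated start sites. At the main start, Rad21 in pre-B cells formed a peak of 2506 bp with a percentile of 83.5, wider than 99.8% of its list, and was not called in DN or DP thymocytes. CTCF there had 60.1 in pro-B and 33.4 in pre-B cells. A merged site over the second start, with its near edge 1.71 kb into the gene, was called in every library. It had 94.4 and 81.7 for CTCF and 76.5, 38.7 and 77.4 for Rad21 in pre-B, DN and DP cells. Its DN and DP peaks lay near the second start without covering it. They gave S1pr1 its promoter call in both thymocyte libraries. The pre-B Rad21 peak of this site (chr3:115415124-115416259) lay next to that of the main start (chr3:115416275-115418780) without overlapping it. The call of the main start in pre-B cells alone rests on this break. The highest peak of the locus in all 5 libraries stood 53.3 kb downstream, between genes, at the S1pr1 sequence shown above. Its percentiles were 98.8 and 98.9 for CTCF and 99.7, 87.6 and 93.8 for Rad21. The other sites found for Rad21 in pre-B cells alone were 12.6 kb (28.9) and 69.9 kb (5.61) downstream. Upstream the nearest site was 78.0 kb away, at 45.5 and 39.3 for CTCF, 58.3 for Rad21 in pre-B and 7.48 in DN cells, with no call in DP.

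Ccr4, the receptor for CCL17 and CCL22, lies at chr9:114399434-114405662 on the minus strand. At the start site itself DP Rad21 was the only call, with a percentile of 47.3. The promoter calls of the other libraries came from a site 1.43 kb upstream, the Ccr4 upstream sequence shown above, which had 88.8 and 71.0 for CTCF and 50.1, 89.8 and 94.2 for Rad21 in pre-B, DN and DP cells. This was the highest DN peak of the locus. A further site 3.37 kb upstream was also called in all 5 libraries, at 77.6, 48.3, 12, 29.3 and 53.4 in the same order. On the other side the nearest site, 27.3 kb downstream in Glb1, was called for CTCF in pro-B cells (53.5) and for Rad21 in DP thymocytes (43.3).

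At the distal sites of Ccr4 the pre-B Rad21 list was the sparse one. The highest DP Rad21 peak, 80.2 kb downstream at the exact consensus match in Glb1 (95.3), had CTCF at 95.6 and 87.6 and Rad21 in DN at 61.6, but no Rad21 call in pre-B cells. The highest pre-B Rad21 peak, 77.8 kb downstream, reached a percentile of 53.0, where DP had 94.6. The highest CTCF peak of pro-B cells stood 84.7 kb upstream (99), with 69.1 for CTCF in pre-B cells. Rad21 formed neighbouring sites there that did not overlap, chr9:114490314-114491083 with 28.1 in DN and 87.5 in DP thymocytes and no call in pre-B cells, and chr9:114491140-114491805 with 7.89 in pre-B and 84.1 in DP cells and no call in DN. Of 14 pre-B CTCF peaks in the window, 5 overlapped a pre-B Rad21 peak. Among the 9701 highest peaks of each Rad21 list the Ccr4 window held none in pre-B cells and 6 sites in DP thymocytes.

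Rad21 calls were then compared between pre-B cells and thymocytes over whole loci. The Ccr4 window held 17 DP peaks and 4 pre-B peaks, and 98.6% of protein-coding genes had a smaller excess of DP over pre-B peaks in windows made the same way. Ccr9, with 17 and 10, exceeded 92.5% of genes. Cxcr4 lay at the other end, with 8 DP and 15 pre-B peaks, and 99% of genes had a difference above its own. Cxcr5 had 13 and 17 peaks and S1pr1 6 and 9, which put 94.1% and 90% of genes above them. Ccr7, with 14 and 13, was near the median gene, whose difference was 0. These differences depended on list length. With the Rad21 lists limited to equal length, the Cxcr4 window held 1 site in DP and 1 in pre-B cells, Cxcr5 and S1pr1 held 3 and 4 each, Ccr7 5 and 5, Ccr9 6 and 4, and Ccr4 6 and 0, so the difference at Cxcr4 was gone while those at Ccr4 and Ccr9 kept their direction.

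Merging the 3 Rad21 lists gave 102 sites in the 6 windows and 46478 in the genome. Sites called in all 3 libraries made up 19 of 102 (18.6%, 11.6 to 27.6, genome 18.7%), and those in pre-B and DP cells 21 (20.6%, 13.2 to 29.7, genome 25.1%). Sites in pre-B cells alone made up 26 (25.5%, 17.4 to 35.1, genome 20.6%), and those in DP thymocytes alone 33 (32.4%, 23.4 to 42.3, genome 33.6%). No site was called in DN alone, the class that held 0.31% of sites in the genome. Summed over the 6 loci these shares were near the genome's. They depended on list length: with the 3 lists limited to their 9701 highest peaks, 30 sites remained, of which 43.3% were in all 3 libraries (genome 33.2%), 3.33% in pre-B and DP (6.5%), 10.0% in pre-B alone (14.8%), 13.3% in DP alone (15.6%) and 20.0% in DN and DP (7.9%). With the full lists, sites in DP alone were 11 of 17 at Ccr4 and 10 of 20 at Ccr9, against 1 of 10 at S1pr1 and 3 of 20 at Cxcr5. Sites in pre-B cells alone were then 10 of 18 at Cxcr4 and 0 of 17 at Ccr4. With lists of equal length, sites in DP alone were 2 of 7 at Ccr4, 2 of 7 at Ccr9, 0 of 6 at S1pr1 and 0 of 4 at Cxcr5. At Ccr4, 4 of 7 were then in DN and DP, and at Cxcr4 0 of 1 was in pre-B cells alone.

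**Figure D3:**
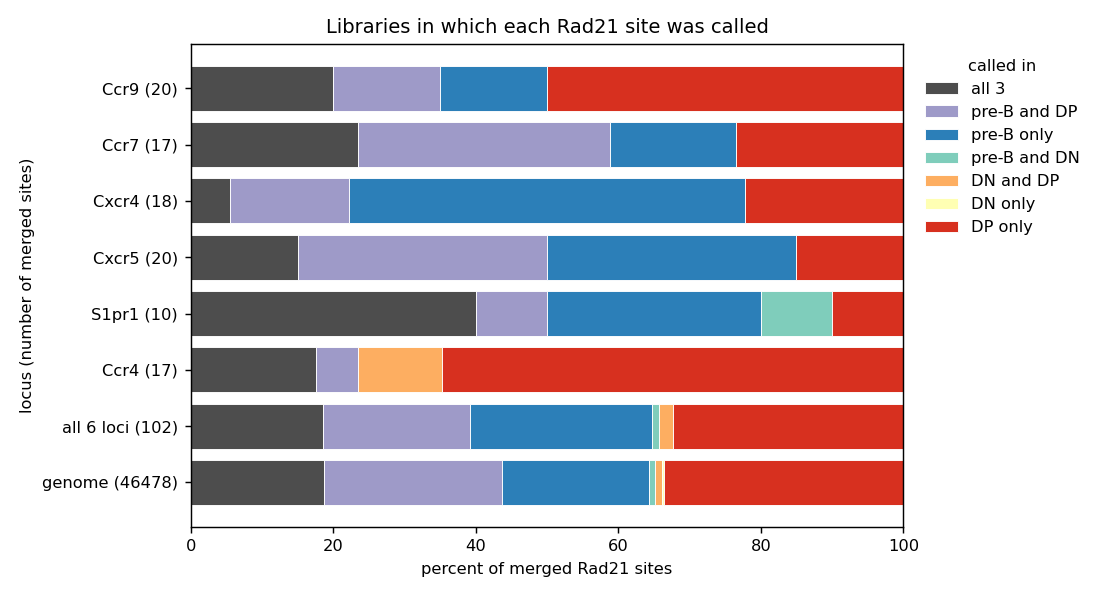
Percent of merged Rad21 sites called in each combination of the pre-B, DN and DP libraries, for each locus, for the 6 loci together and for the genome, with the number of merged sites in brackets. The full lists are shown, and sites in DP alone take 64.7% of the Ccr4 bar and 50% of the Ccr9 bar. Sites in pre-B cells alone take 55.6% of the Cxcr4 bar.

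Most of the sites called at 1 stage were weak ones. The median percentile was 38.8 for the 33 sites in DP alone (genome 31.5) and 25.0 for the 26 in pre-B cells alone (genome 26.6). Among the 9701 highest peaks of their lists stood 3 of the 33, at the Ccr9 start site, 1.25 kb inside Ccr9, and 60.5 kb downstream of Ccr4 in Glb1 (75.0). So did 1 of the 26, at the S1pr1 start site, next to the site there called in every library. In the genome it was 993 of 15601 sites in DP alone and 566 of 9586 in pre-B cells alone, so few sites of either class stood that high there too.

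The overlap of the factors was compared next, with 1 bp as the least overlap. Both pre-B libraries were called against 1 shared input. Of 67 pre-B CTCF peaks, 46 overlapped a pre-B Rad21 peak (68.7%, 56.2 to 79.4), against 63.5% in the genome. The share was 8 of 8 at S1pr1 and 7 of 7 at Ccr9, and 5 of 14 at Ccr4 (35.7%, 12.8 to 64.9). In the other direction, 44 of 68 pre-B Rad21 peaks overlapped a pre-B CTCF peak (64.7%, 52.2 to 75.9), against 88.1% in the genome. Cxcr4 held 13 of the 24 Rad21 peaks without CTCF, and there the share with CTCF was 2 of 15 (13.3%, 1.66 to 40.5). At Ccr7 it was 12 of 13 and at Ccr4 4 of 4.

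With CTCF peaks of either B-lineage list counted, 46 of 68 pre-B Rad21 peaks (67.6%, genome 92.4%), 22 of 22 DN peaks (genome 98.4%) and 45 of 75 DP peaks (60.0%, genome 69.2%) lay at a CTCF peak. Since CTCF came from B-lineage cells, a thymocyte Rad21 peak without it may still be bound by CTCF in thymocytes. At Ccr9, 11 of 17 DP peaks had no such CTCF peak (64.7%, 38.3 to 85.8), among them all 10 sites in DP alone. Over the 6 loci 25 of the 33 sites in DP alone had none (75.8%), and in the genome 65.7% of such sites had none, so this was the larger share of the class there too. At Cxcr4 it was 7 of 8 (87.5%, 47.3 to 99.7), against 30.8% of DP peaks in the genome. Of the sites in pre-B cells alone, 16 of 26 had no CTCF peak (61.5%), against 14.6% of such sites in the genome. Of these 16 sites, 8 were at Cxcr4, 4 at Cxcr5, 2 at Ccr9, and 1 each at Ccr7 and S1pr1.

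**Figure D4:**
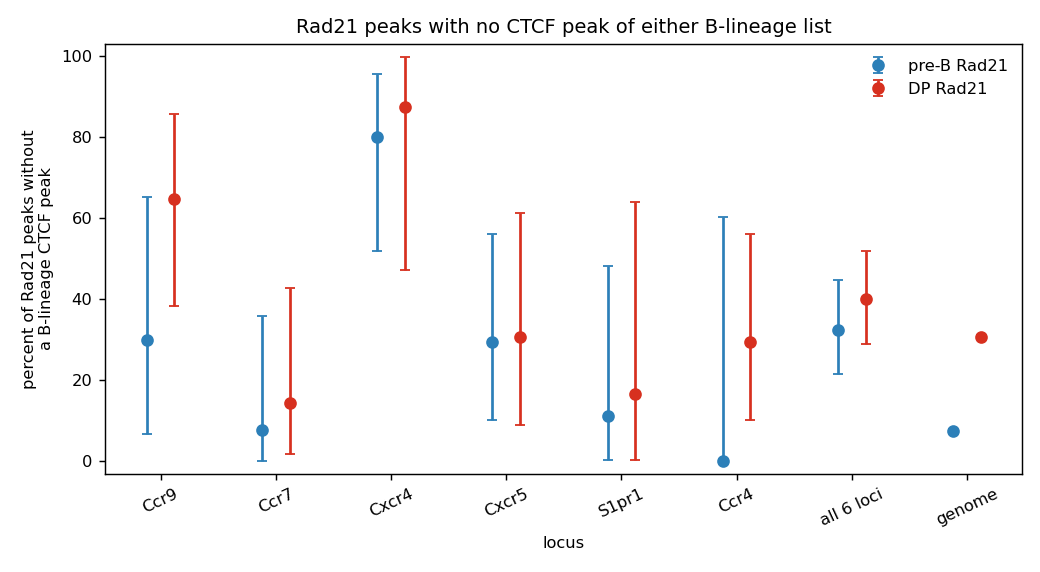
Percent of pre-B and of DP Rad21 peaks that overlap no CTCF peak of the pro-B or pre-B list, for each locus, the 6 loci and the genome, with exact 95% intervals. The points are at 80.0% and 87.5% at Cxcr4, and at Ccr9 the DP point is at 64.7% and the pre-B point at 30.0%.

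CTCF in pre-B cells was compared with CTCF in pro-B cells with IL7, libraries that differ in stage, in culture and in the transgene, which cannot be told apart. The paper reports that IL7-cultured pro-B cells were more like pre-B than pro-B cells in CTCF binding at the immunoglobulin κ locus. Pro-B cells without culture were not analysed here. Of the 67 pre-B peaks, 64 were called in pro-B cells too (95.5%, 87.5 to 99.1), against 96.0% in the genome. The other 3 were 2 at Cxcr4 and 1 at Ccr7, 40.6 kb upstream. Of the 92 pro-B peaks, 64 were called in pre-B cells (69.6%, 59.1 to 78.7), against 58.6% in the genome. The pro-B list is the longer of the pair.

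The CTCF consensus, with at most 2 mismatches on either strand, was found in 25 of the 67 pre-B CTCF peaks (37.3%, 25.8 to 50), against 48.3% of all pre-B CTCF peaks, and in 7.46% of windows of the same widths 2000 bp away (genome 8.97%). It was present in 10 of 17 peaks at Cxcr5 and 6 of 14 at Ccr4, and in 3 of 16 at Ccr7 and 1 of 8 at S1pr1. The 2 highest CTCF sites of Ccr7 held no such match. Of the 25 matches, 14 pointed towards the start site of the member and 11 away, when a match on the plus strand is read as pointing to lower coordinates. Among DP Rad21 peaks of the 6 loci the consensus was found in 20 of 45 with a B-lineage CTCF peak (44.4%, 29.6 to 60.0) and in 4 of 30 without (13.3%, 3.76 to 30.7), where the genome had 49.7% and 9.98%. Among pre-B Rad21 peaks it was found in 16 of 46 with CTCF (34.8%, 21.4 to 50.2) and in 2 of 22 without (9.09%, 1.12 to 29.2), where the genome had 51.9% and 11.6%.

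Other genes of lymphocyte homing were read in the same way, from a list of 37 that holds 18 chemokine receptors, 5 lipid receptors, 7 adhesion molecules and 7 ligands, of which 4 were matched by an older symbol. Promoter CTCF was called at 16 of the 37 in pro-B cells (all promoters 46.1%) and at 12 in pre-B cells (33.1%), and promoter Rad21 at 13 in pre-B (25.4%), 3 in DN (6.61%) and 13 in DP cells (36.3%), counts close to those shares in 4 of the 5 lists and above it for Rad21 in pre-B cells. No list had a call at 19 of the 37 promoters (all promoters 44.4%), among them Cxcr3, the receptor of effector T cells, and the chemokine genes Ccl19, Ccl21a and Cxcl13. Of the 18 chemokine receptors, promoter Rad21 was called at 4 (pre-B, all promoters 25.4%), 3 (DP, 36.3%) and 0 (DN, 6.61%). Of the 7 adhesion molecules, the counts were 6, 6 and 2, against the same shares.

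The pattern of promoter calls over the 5 libraries was used as the measure of likeness to each member. Ccr9's pattern, Rad21 in DP alone, was shared by 1 of the 37 genes (all promoters 5.96%), Gpr183, an oxysterol receptor that positions B cells. S1pr2 also had promoter Rad21 in DP and not in pre-B cells, but with CTCF in pro-B cells. The pattern of Cxcr4, S1pr1 and Ccr4, a call in every library, was shared by 3 (6.1%), the integrin genes Itga4 and Itgal and Cxcl12, which codes for the ligand of CXCR4. Ccr7's pattern was shared by 6 (11.3%), and that of Cxcr5 by 0 (0.483%). A promoter Rad21 call in pre-B cells and in neither thymocyte library was found at 2 of the 37 (all promoters 4.91%). These were S1pr3 and Ackr3, the atypical receptor for CXCL12, both with CTCF in the B-lineage lists.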

How the data were processed

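ChIP-seq peak lists of 5 libraries were analysed, with 1 library per condition. The authors discarded duplicates, trimmed adapters and mapped to mm9 with Bowtie (0.12.9 in the submitters' processing notes, while the study's methods name a later release), where a read with at most 3 matching places was kept, before MACS 1.4.2 called peaks against input. The deposited files give each peak's position and score, a value that grows with read depth, so it was used only to rank peaks within a list. Reads that map to several places can blur near-identical genes.

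Genes were taken from the GENCODE vM1 annotation of the same build. The main start site was that of the first-numbered transcript of a gene. The consensus search used the mm9 sequence. The named sites were all sites at gene bodies and within 2 kb of start sites, the nearest site on each side, the highest peak of each list, and up to 4 sites found at 1 stage. The members and lists were chosen with earlier results of these data known. Motif and overlap steps were tested on simulated data. Alternatives were a score of at least 100, lists of equal length, flanks of 50 and 200 kb, counting by midpoint, 50% overlap, promoters of 1 and 5 kb, and 1 or 3 mismatches. The work used Python 3.11.15, numpy 2.4.6, pandas 2.3.3, scipy 1.17.1 and matplotlib 3.10.9. Input libraries were not analysed here. The promoter sequences of 4 members are not printed, and the motif matches of 1 promoter and of 1 further motif searched are not reported.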

Additional observations from a re-analysis of the deposited data

How the results depend on the processing

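Of 104 values recomputed for 19 results, 15 moved: shares out of the main value's 95% interval, and densities and counts by over 1.5 times. The other 89 did not. With lists of equal length, density fell to 45.4 peaks per Mb for CTCF in pro-B cells, 13.4 for Rad21 in pre-B and 17.9 in DP cells, and 3 member promoters held Rad21 in pre-B cells. The Rad21 classes, of 30 sites, then were 43.3% in all 3 libraries, 3.33% in pre-B and DP, 10.0% in pre-B alone, 13.3% in DP alone, 20.0% in DN and DP, 6.67% in DN alone (genome 13.0%) and 3.33% in pre-B and DN (genome 8.94%). Pre-B CTCF peaks with Rad21 became 83.7% with the pre-B CTCF list cut to the length of the pre-B Rad21 list. With flanks of 50 kb the share was 83.3%. Pre-B CTCF peaks also in pro-B cells became 83.6% with CTCF lists of equal length, and pro-B peaks also in pre-B cells 91.8%, or 80.0% with scores of at least 100. Genome shares were not computed for these overlap settings. The consensus was found in 11.9% of pre-B CTCF peaks with at most 1 mismatch and in 98.5% with at most 3, where neighbouring windows reached 64.2%. Without the long Ccr9 transcript, an alternative chosen after seeing the data and run for the 5 densities and 4 Rad21 classes, none of these 9 values moved. With no replicates, leaving out a library was not possible, and no paired analysis was possible because each condition has 1 library. Read depth is unknown and limits every missing call.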
